A study of Mus musculus with 4 samples.

Results

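The 10 genes described here form the MHC class II antigen presentation pathway as the gene annotation of these data names it: the chain genes H2-Aa, H2-Ab1 and H2-Eb1, the invariant chain gene Cd74, the peptide exchange genes H2-DMa, H2-DMb1, H2-DMb2, H2-Oa and H2-Ob, and the regulator Ciita. They were chosen by gene symbol from the 31253 genes counted, and all 10 had counts in both libraries. Live CD45+ leukocytes came from brain hemispheres with CT2a tumors, a mouse glioma line of which 50000 cells had been implanted 14 days earlier, in 4 WT and 4 CaMKK2 KO mice, and were profiled by 3′ single-cell RNA sequencing. A UMI marks 1 captured transcript end in this assay, so levels of genes are compared per molecule, without correction for length. All mice were female, 8 to 12 weeks old and of C57Bl/6 background. CaMKK2 KO mice lacked the kinase CaMKK2 in the germline, so that every immune class and the host tissue carried the deletion, while the implanted glioma cells did not differ between the groups. Hashtag antibodies named the mouse of each cell, but all 4 mice of a genotype shared a 10X channel, so genotype and channel cannot be told apart. The comparison asks in which immune classes the class II genes differed between CaMKK2 KO and WT tumors.

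Class II molecules present peptides from the endosomal pathway to CD4+ T cells. The α and β chains pair in the endoplasmic reticulum around the invariant chain, which blocks the groove and directs the complex to endosomes, where the remaining fragment is exchanged for peptide with the help of H2-DM, a step that H2-O inhibits. Dendritic cells and B cells make these proteins constitutively, whereas macrophages, monocytes and microglia do so mainly after exposure to interferon gamma, and in each of these cells transcription depends on the coactivator CIITA, which docks onto a complex of RFX, NF-Y and CREB proteins at the X and Y boxes of the promoters. In the gene annotation (build GRCm38), 8 members lie in the MHC on chromosome 17, from H2-Oa at chr17:34092340-34095234 through H2-DMa, H2-DMb2, H2-DMb1, H2-Ob, H2-Ab1 and H2-Aa to H2-Eb1 at chr17:34305867-34316674. Ciita lies at chr16:10480059-10528418 and Cd74 on a further chromosome. H2-DMb1 and H2-DMb2 are near-identical neighbours, so the split of UMIs between them is uncertain, and H2-Ea-ps, the pseudogene of the E α chain in this strain, was not analysed here.

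The promoters are shown because CIITA acts through X and Y boxes in the promoters of class II genes. Of the 10 members, 7 had a promoter window from 250 bases before to 50 bases after the gene's start in RefSeq (GRCm38.p6). The letters GNAAC of the X box, followed 20 to 40 bases further on the same strand by the letters GATTGG of the Y box, were searched on both strands, and the pair was found on the gene's own strand in the windows of 5 members. Capitals mark these letters in the stretches printed 5′ to 3′ here, which overlap in no base between X and Y.
H2-Aa: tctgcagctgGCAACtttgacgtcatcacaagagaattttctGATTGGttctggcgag
H2-Eb1: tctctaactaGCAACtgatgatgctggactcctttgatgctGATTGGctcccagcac
H2-DMb1: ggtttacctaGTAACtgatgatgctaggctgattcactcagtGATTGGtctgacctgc
H2-Oa: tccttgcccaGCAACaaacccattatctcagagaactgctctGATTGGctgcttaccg
H2-Ob: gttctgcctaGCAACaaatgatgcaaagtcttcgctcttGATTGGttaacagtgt
They lie at chr17:34287857-34287914 on the minus strand for H2-Aa and, on the plus strand, at chr17:34305766-34305822 for H2-Eb1, chr17:34153087-34153144 for H2-DMb1, chr17:34092293-34092350 for H2-Oa and chr17:34238808-34238862 for H2-Ob. The X letters began 76 to 94 bases before the gene's start, and X and Y were 29 to 32 bases apart from start to start. The same pair of letters occurred in 1.21% of all 32851 promoter windows. The windows of H2-DMa and H2-DMb2 did not hold these letters. A match describes the sequence and was not tested as a binding site.

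After filtering, 10679 cells remained (5047 WT, 5632 CaMKK2 KO), with 1006 to 1662 cells and 11890210 to 20360454 UMIs per mouse, and Ptprc, which encodes CD45, was detected in 95.1% to 98.7% of the cells of a mouse. Summed over all cells, Camkk2 (chr5:122731170-122779409) stood at 27.7, 29.5, 38.8 and 27.8 CPM in WT mice 1 to 4 and at 14.8, 18.4, 13.3 and 22.8 CPM in CaMKK2 KO mice 1 to 4, where CPM are UMIs per 1000000 UMIs of the same cells and mouse numbers are names of hashtags only. Every CaMKK2 KO mouse lay below every WT mouse, and the part of the transcript that the remaining UMIs came from was not tested. In the macrophage class, where the test had most depth, Camkk2 was lower by edgeR's quasi-likelihood test (log2 fold change of -1.12 ± 0.11, SE, adjusted p = 0.00099). Cells were assigned to 12 classes by marker lists that held no class II gene. For 10 of the 11 classes with a list of their own the list was highest in that class, but the macrophage list was higher in microglia (29200 CPM) than in macrophages (18100 CPM), so microglia were gated on their own markers beforehand. The libraries shared 42 barcodes.

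The order of the classes followed their known roles in WT tumors. The summed level of the 4 most abundant members (H2-Aa, H2-Ab1, H2-Eb1 and Cd74, called the core genes here) was 74410 ± 6290 CPM in cDC2 (type 2 conventional dendritic cells, mean ± SD, n = 4 mice) and 57030 ± 5092 CPM in cDC1 (type 1 conventional dendritic cells, n = 4), with no overlap between them. B cells at 25360 ± 3339 CPM (n = 4) and mature migratory DCs at 22880 ± 2015 CPM (n = 3 mice with at least 10 cells) came next and overlapped. Monocyte-macrophage intermediates, which scored alike for both markers, stood at 16290 ± 4875 CPM and overlapped macrophages at 14570 ± 7389 CPM. Plasmacytoid DCs (9288 ± 2670 CPM, n = 2), classical monocytes (5925 ± 2978 CPM), non-classical monocytes (2761 ± 3640 CPM, n = 3) and microglia (1198 ± 929 CPM) followed, each overlapping its neighbour. T cells at 279 ± 48.1 CPM and NK cells at 230 ± 29.5 CPM, which do not make class II molecules in the mouse, serve here as the background level, free RNA in droplets included, and every WT microglia value (lowest mouse 486 CPM) was above every T cell value (highest 351 CPM). In CaMKK2 KO tumors the order differed. cDC2 remained highest in mean (67720 ± 5438 CPM, n = 3), but macrophages (59780 ± 6219 CPM, n = 4) and intermediates (58590 ± 4888 CPM) overlapped cDC1 (60340 ± 1450 CPM, n = 2). Macrophages also overlapped cDC2, with 65620 CPM in the highest mouse, against 61910 CPM in the lowest cDC2 mouse. Classical monocytes (32830 ± 5005 CPM) overlapped B cells (27550 ± 1576 CPM), and microglia ranged from 6403 to 53930 CPM. All of these are shares of a class's UMIs, and more RNA of a gene per cell and less RNA of other genes cannot be told apart.

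**Figure D1:**
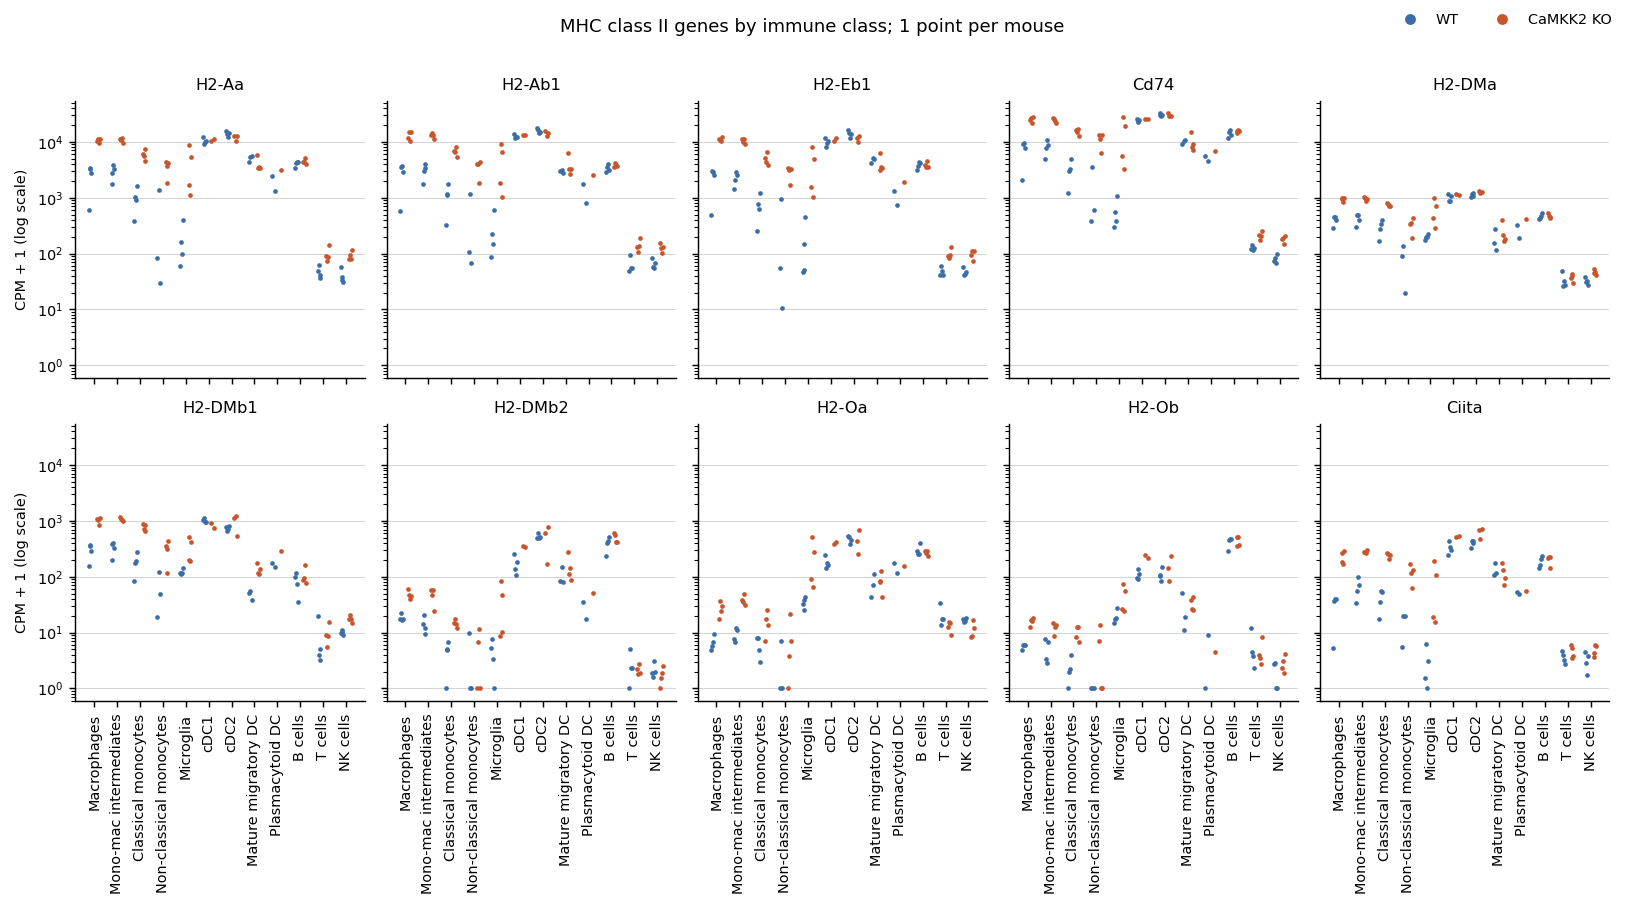
CPM + 1 on a log scale (y axis) for each of the 10 genes in 12 immune classes (x axis), with 1 point for each mouse with at least 10 cells of the class (blue, WT; orange, CaMKK2 KO). Points of the genotypes lie apart for 10 of 10 genes in macrophages and intermediates and for 0 of 10 in B cells. How many of all genes lie apart was not counted.

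The classes that carried the class II UMIs of a tumor differed in share between the genotypes. Macrophages carried a median of 38.5% of a WT mouse's core gene UMIs and 52.7% of a CaMKK2 KO mouse's, although their median share of cells was 32.2% and 23.6%. cDC2 carried 20.9% to 31.1% in WT mice and 1.94% to 6.39% in CaMKK2 KO mice, with no overlap, and they made up 3.65% to 4.36% and 0.69% to 1.98% of the cells. cDC1 likewise carried 5.74% to 13.4% and 0.69% to 3.54%. Classical monocytes carried 0.62% to 6.60% of the core gene UMIs in WT mice and 8.78% to 24.4% in CaMKK2 KO mice, and intermediates 2.0% to 8.12% and 9.87% to 18.4%. These shares were not tested, since they combine the number of cells with their levels. They are set side by side in the plot of the classes that carried the class II UMIs.

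**Figure D2:**
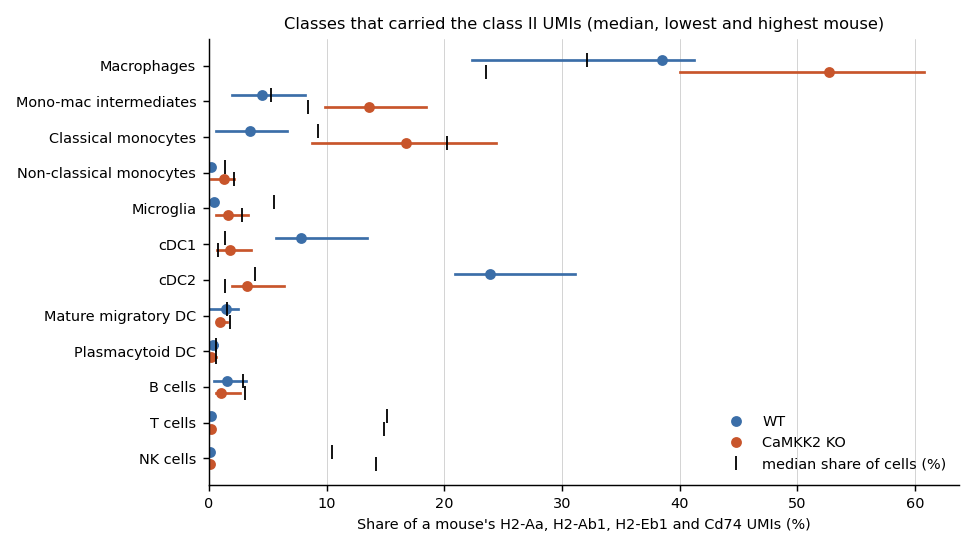
Share of a mouse's H2-Aa, H2-Ab1, H2-Eb1 and Cd74 UMIs (x axis, %) carried by each immune class (y axis); points are medians and lines the lowest to highest of 4 mice (blue, WT; orange, CaMKK2 KO), and black ticks give the median share of cells. cDC2 lines of the genotypes lie apart, at 20.9% to 31.1% in WT and 1.94% to 6.39% in CaMKK2 KO mice.

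In macrophages every member was higher in CaMKK2 KO than in WT mice. All 10 were tested and all 10 rose (edgeR, adjusted p under 0.05, n = 4 mice per genotype), while 0.971% of the 9367 genes tested rose, and the median log2 fold change was 1.94 over the members and -0.08 over all genes. H2-Aa, which encodes the α chain of I-A, stood at 608, 3297, 3407 and 2803 CPM in WT mice and at 10180, 11340, 9436 and 11360 CPM in CaMKK2 KO mice. WT mouse 1 was far lower than the other WT mice, and the lowest CaMKK2 KO mouse lay above the highest WT mouse. The log2 fold change in edgeR was 2.06 ± 0.43 (SE, adjusted p = 0.042). H2-Ab1, its β chain partner, stood at 583, 3575, 3626 and 2911 CPM in WT mice and at 11810, 14720, 10290 and 14780 CPM in CaMKK2 KO mice (log2 difference 2.27 ± 0.47, adjusted p = 0.040). H2-Eb1, the β chain of I-E, stood at 483, 2984, 2889 and 2523 CPM and at 11130, 10970, 10310 and 12040 CPM (2.32 ± 0.46, adjusted p = 0.033). Both repeated the pattern of H2-Aa, with WT mouse 1 lowest and the genotypes apart. Cd74, the invariant chain, was the most abundant member and stood at 2074, 9284, 9536 and 7714 CPM in WT mice and at 24540, 26820, 21950 and 27440 CPM in CaMKK2 KO mice (log2 difference 1.82 ± 0.39, adjusted p = 0.046).

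The genes of peptide exchange were lower in level. H2-DMa, the α chain of H2-DM, stood at 290, 454, 450 and 393 CPM in WT macrophages and at 944, 978, 837 and 990 CPM in CaMKK2 KO macrophages (log2 fold change of 1.24 ± 0.15, adjusted p = 0.0021). H2-DMb1, a β chain of H2-DM, stood at 156, 365, 347 and 292 CPM and at 1060, 1033, 854 and 1114 CPM (1.81 ± 0.24, adjusted p = 0.0041). The other β chain gene, H2-DMb2, was far lower, at 16.2, 21.1, 16.0 and 16.6 CPM and at 58.7, 45.7, 39.1 and 44.7 CPM (1.44 ± 0.15, adjusted p = 0.0010). WT mouse 1 was lowest for H2-DMa and H2-DMb1 but not for H2-DMb2. H2-Oa and H2-Ob, the chains of the H2-DM inhibitor H2-O, were the lowest of all. H2-Oa stood at 3.78, 4.71, 5.77 and 8.28 CPM in WT mice and at 16.5, 36.1, 23.5 and 28.5 CPM in CaMKK2 KO mice (log2 difference 2.19 ± 0.29, adjusted p = 0.0047). H2-Ob stood at 3.89, 5.06, 5.11 and 5.06 CPM and at 11.9, 15.7, 15.2 and 17.0 CPM (1.63 ± 0.17, adjusted p = 0.0010). Ciita, the coactivator, had the largest fitted difference of the 10, at 4.34, 36.5, 39.1 and 39.1 CPM in WT mice and 186, 267, 165 and 289 CPM in CaMKK2 KO mice (log2 difference 2.94 ± 0.53, adjusted p = 0.023). For all of these genes the genotypes did not overlap.

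The call for the chain genes depended on single mice, the direction did not. Without WT mouse 2, 3 or 4 or CaMKK2 KO mouse 2 or 4, 5 of 10 members passed, namely H2-DMa, H2-DMb1, H2-DMb2, H2-Oa and H2-Ob, without CaMKK2 KO mouse 1 these and Ciita passed, and without WT mouse 1 or CaMKK2 KO mouse 3 all 10 passed. Fewer of all genes were called as well in the fits where 5 or 6 members passed. They numbered from 98 of 9114 (without WT mouse 4) to 170 of 9160 (without CaMKK2 KO mouse 1), against 231 of 9367 with all mice. Without WT mouse 1 the log2 fold change of H2-Aa was 1.74 ± 0.13 and that of Ciita 2.56 ± 0.21. Many macrophages of the 2 genotypes fell into different clusters, although the clustering used no class II gene: cluster 0 held 51.1% of the WT macrophages and clusters 9 and 1 held 40.8% and 24.3% of the CaMKK2 KO macrophages. Cluster 9 (12 WT and 1348 CaMKK2 KO cells in all) was named monocyte-macrophage intermediates by the mean marker scores of its cells. In the 4 macrophage clusters with at least 25% of their cells from each genotype (an analysis chosen after the data were seen), 8 members could be tested. Of all genes, 42 of the 7285 tested were called in these clusters. There H2-DMa, H2-DMb1, H2-DMb2 and Ciita passed, and H2-Aa, H2-Ab1, H2-Eb1 and Cd74 were estimated at 2.49 ± 0.55, 2.57 ± 0.50, 2.68 ± 0.60 and 2.22 ± 0.48 on the log2 scale at adjusted p values of 0.0947, 0.0615, 0.1 and 0.0914. With clusters in place of gates 7 of 10 passed, and H2-Aa, H2-Oa and Cd74 missed the threshold. Marker lists moved with the genotype in macrophages. The 8 classical monocyte markers, all with UMIs, had a summed level of 999 to 1642 CPM in WT mice and 1501 to 4548 CPM in CaMKK2 KO mice, against 12920 to 20610 CPM in classical monocytes. The macrophage list summed to 18720 to 19440 CPM in WT mice, against 14020 to 18640 CPM in CaMKK2 KO mice, the microglia list to 446 to 724 CPM against 189 to 305 CPM, the T cell list to 9.07 to 10.5 CPM against 15.3 to 20.2 CPM and the neutrophil list to 42.7 to 53.1 CPM against 57.7 to 102.5 CPM, none of them overlapping. Cells near the edge of the gate, whose macrophage score led by under 0.2, made up 8.11% of WT and 17.5% of CaMKK2 KO macrophages. All 10 members passed without these cells (chosen after the data were seen), and the part of these lists in the result was not tested.

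Class II UMIs were abundant in nearly every macrophage of a CaMKK2 KO mouse. Each macrophage was thinned to 2000 UMIs, which left out 22 WT and 26 CaMKK2 KO cells below that depth, and was called high with at least 20 UMIs, or 1%, from the 10 members. High cells made up 14.7%, 52.0%, 57.7% and 44.8% of the macrophages of WT mice 1 to 4 and 96.4%, 98.1%, 92.6% and 95.1% of those of CaMKK2 KO mice 1 to 4. All CaMKK2 KO mice lay far above all WT mice, and the means of 42.3% and 95.5% differed by 53.2 percentage points (two-sided exact permutation test, p = 0.0286, the smallest that 4 mice against 4 allow). Unthinned, the difference was the same to 3 digits, and median depths were close (16215 and 16061 UMIs per macrophage). WT macrophages were spread widely, with a median of 0.10% to 1.38% of UMIs from the members and a 90th percentile of 1.42% to 5.50%. CaMKK2 KO macrophages had a median of 6.07% to 7.20% and a 10th percentile of 1.42% to 3.35%. The 90th percentile of every WT mouse lay below the median of every CaMKK2 KO mouse. In the 4 clusters shared by the genotypes, the means were 27.1% and 90.2% (permutation p = 0.0286).

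**Figure D3:**
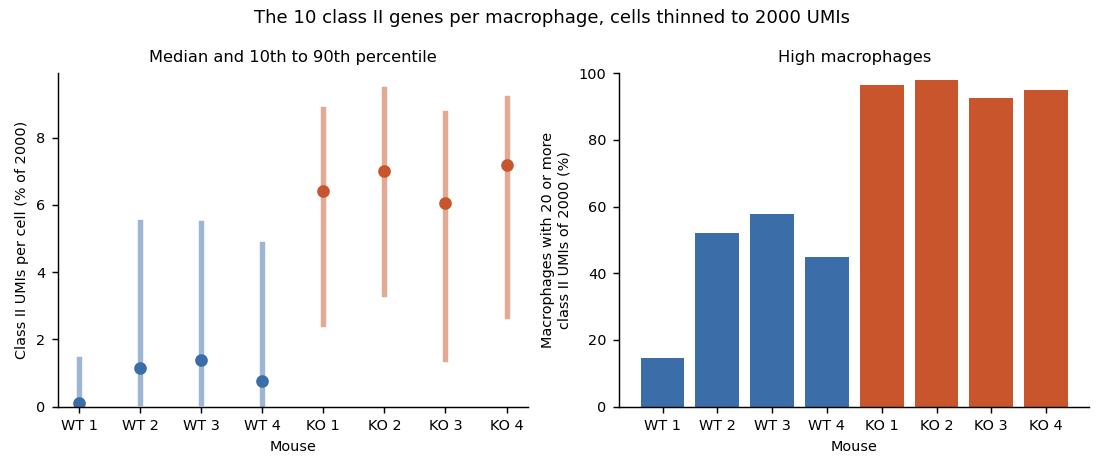
Class II UMIs of the 10 genes per macrophage after thinning to 2000 UMIs, by mouse (blue, WT; orange, CaMKK2 KO). Left, y axis in % of the cell's UMIs, points are medians and bars the 10th to 90th percentile of cells; right, % of macrophages with at least 20 class II UMIs, from 14.7% to 57.7% in WT and 92.6% to 98.1% in CaMKK2 KO mice.

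Monocytes showed the same direction from a lower base. In classical monocytes, 8 of 9 tested members rose, against 1.10% of the 6698 genes tested there, with a median log2 fold change of 2.28 over the members and -0.02 over all genes. H2-Aa stood at 381, 1026, 927 and 1648 CPM in WT mice and at 6078, 5532, 7422 and 4610 CPM in CaMKK2 KO mice (log2 fold change of 2.57 ± 0.36, adjusted p = 0.0057), and Ciita at 16.3, 34.8, 54.0 and 51.3 CPM and at 262, 250, 203 and 243 CPM (2.52 ± 0.26, adjusted p = 0.00065). Neither gene overlapped between the genotypes. H2-Eb1 (2.80 ± 0.39), H2-Ab1 (2.62 ± 0.39), Cd74 (2.28 ± 0.33), H2-DMb1 (2.08 ± 0.28), H2-DMb2 (1.77 ± 0.33) and H2-DMa (1.32 ± 0.23) also rose. The remaining tested gene, H2-Oa, had few UMIs, at 6.98, 6.86, 3.81 and 1.97 CPM in WT mice, against 6.18, 16.8, 24.3 and 12.9 CPM in CaMKK2 KO mice, with overlap and an adjusted p of 0.11. H2-Ob was under the minimum of 200 UMIs, and with genes of at least 50 UMIs 9 of 10 members passed, H2-Ob among them. Without each mouse in turn 6 to 8 of the 7 to 9 members that could then be tested passed. H2-DMa missed the threshold without WT mouse 2 or CaMKK2 KO mouse 2 or 4 (adjusted p of 0.0754, 0.0675 and 0.0525), and H2-DMb2 was at an adjusted p of 0.0518 with high doublet scores kept. WT mouse 1 had 37 classical monocytes, whose neutrophil list summed to 1839 CPM, against 141 to 371 CPM in the other WT mice. The T cell list summed to 9.53 to 17.8 CPM in WT and 20.2 to 27.9 CPM in CaMKK2 KO classical monocytes, without overlap. The part of these lists in the result was not tested. In the intermediates, a class added after the data were seen, 9 of 9 tested members rose, against 1.08% of 5001 genes, from 1.17 ± 0.16 for H2-DMa to 2.2 ± 0.21 for H2-Eb1. Without each mouse in turn 7 to 9 of the 8 or 9 that could then be tested passed, and H2-DMb2 missed the threshold in 6 of these 8 fits (adjusted p of 0.0511 to 0.139). For both classes, counts of all genes are not given here for fits without a mouse or with genes of at least 50 UMIs.

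Non-classical monocytes, also added later and few (75 WT and 141 CaMKK2 KO cells, n = 3 and 4 mice), gave large but uncertain differences. 0 of 6 tested members passed in edgeR, which called 0.347% of the 1443 genes tested. DESeq2 called 3 members (Cd74, H2-DMa and H2-DMb1) and 21 of the 1443 genes. In edgeR 6 of 6 members had an unadjusted p under 0.05, a threshold at which the share of all genes was not counted. The median log2 fold change was 2.86 over the members and -0.03 over all genes. Cd74 stood at 381, 3497 and 591 CPM in WT mice 2 to 4 and at 13500, 11410, 6260 and 13040 CPM in CaMKK2 KO mice (log2 difference 2.89 ± 0.68, adjusted p = 0.15). WT mouse 3 was the highest of its group and CaMKK2 KO mouse 3 the lowest of its own, without overlap. All 6 members passed without WT mouse 3, where 39 of the 1299 genes tested were called. Without CaMKK2 KO mouse 3, 2 members passed and 12 of the 1365 genes tested were called. With all mice, 5 of 1443 genes were called.

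Microglia, the resident macrophages of the brain, had the largest estimated differences in the chain genes. All 7 tested members rose, against 0.734% of the 4498 genes tested, with a median log2 fold change of 4.17 over the members and -0.11 over all genes. H2-Aa stood at 59.4, 157, 99.2 and 397 CPM in WT mice and at 1693, 8739, 1109 and 5416 CPM in CaMKK2 KO mice (log2 difference 4.61 ± 0.68, adjusted p = 0.0026). CaMKK2 KO mice 2 and 4 were several times above mice 1 and 3, and all 4 were above WT. The class held 315 WT cells and 135 CaMKK2 KO cells, with 18 in CaMKK2 KO mouse 2. Cd74 repeated this, with 294, 563, 387 and 1088 CPM against 5587, 28080, 3235 and 18910 CPM (4.59 ± 0.63, adjusted p = 0.0014), as did H2-Ab1 (4.17 ± 0.69) and H2-Eb1 (4.52 ± 0.77). The size moved with single mice: without each in turn H2-Aa ran from 3.99 to 5.33, H2-Ab1 from 3.62 to 4.94, H2-Eb1 from 3.9 to 5.53 and Cd74 from 4.0 to 5.07, lowest without CaMKK2 KO mouse 2 and highest without WT mouse 4. H2-DMa (1.62 ± 0.30) and H2-DMb1 (1.43 ± 0.28) differed by less. H2-Oa was higher in WT microglia than in WT macrophages, at 31.6, 38.0, 24.2 and 42.8 CPM, and stood at 89.5, 507, 63.8 and 275 CPM in CaMKK2 KO microglia (2.69 ± 0.53, adjusted p = 0.018). Without CaMKK2 KO mouse 4 4 of 7 members passed, namely the core genes, and 35 of the 4285 genes tested were called. Ciita was listed at 0.54, 5.33, 0 and 2.04 CPM in WT mice, against 17.9, 189, 14.3 and 105 CPM in CaMKK2 KO microglia and was under the minimum of 200 UMIs in this test. With genes of at least 50 UMIs 8 of 10 members passed, Ciita among them, and the count of all genes at that minimum is not given here. The classical monocyte markers, 7 of 8 with UMIs, summed to 84.0 to 141 CPM in WT and 342 to 550 CPM in CaMKK2 KO microglia. Those sums lay far below the level of classical monocytes, and CaMKK2 KO mouse 1 was highest in them. The microglia list was lowest in CaMKK2 KO mouse 2, at 3027 CPM. It summed to 4555 to 5121 CPM in the other CaMKK2 KO mice and to 3690 to 6285 CPM in WT mice. The part of these lists in the result was not tested.

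Dendritic cells differed little in the chain genes. In cDC2 (n = 4 WT and 3 CaMKK2 KO mice), 0 of 10 members passed in edgeR or DESeq2, and edgeR called 0.818% of the 3177 genes tested. Ciita and H2-Eb1 had an unadjusted p under 0.05, a threshold at which the share of all genes was not counted. H2-Aa stood at 15790, 13990, 12000 and 14170 CPM in WT mice and at 12870, 10500 and 12780 CPM in CaMKK2 KO mice 1 to 3, with overlap (log2 fold change of -0.21 ± 0.10, adjusted p = 0.35). Cd74 was at 32640, 30810, 28590 and 30450 CPM and at 32270, 29000 and 28440 CPM, also overlapping (-0.03 ± 0.06, adjusted p = 0.84). Ciita alone of the 10 did not overlap, at 329, 436, 408 and 441 CPM in WT mice, against 686, 470 and 711 CPM in CaMKK2 KO cDC2 (0.63 ± 0.18, adjusted p = 0.14), and it passed with clusters in place of gates (0.74 ± 0.14, adjusted p = 0.030). Without CaMKK2 KO mouse 3 H2-DMb1 passed (0.66 ± 0.12, adjusted p = 0.018). Of all genes, 69 of 5198 passed with clusters and 191 of 2823 without that mouse, against 26 of 3177 in the main test.

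In cDC1 only 2 CaMKK2 KO mice had at least 10 cells, and 1 of 10 members rose, H2-Oa, against 0.495% of the 1413 genes tested. It was at 239, 143, 176 and 158 CPM in WT mice and at 379 and 424 CPM in CaMKK2 KO mice 2 and 3 (1.17 ± 0.22, adjusted p = 0.041). Its adjusted p was 0.0572 with TMM scaling, 0.0718 with outlying cells kept, 0.111 with high doublet scores kept and 0.233 with clusters in place of gates, and of the fits leaving out 1 mouse it passed only in the one without WT mouse 1. H2-Ob and H2-DMb2 had similar estimates that did not pass (1.09 ± 0.22, adjusted p = 0.053, and 1.02 ± 0.29, adjusted p = 0.30), with no overlap of the mice, and H2-Ob passed with outlying cells kept, with high doublet scores kept, with clusters and without WT mouse 3. The chain genes and Cd74 differed by 0.03 to 0.15 on the log2 scale, with SE of 0.11 to 0.16. Ciita did not pass, and with TMM scaling edgeR put it at 0.68 ± 0.21 (adjusted p = 0.34). In the main test 4 of 10 members had an unadjusted p under 0.05 (Ciita, H2-DMb2, H2-Oa and H2-Ob). The share of all genes was not counted at that threshold.

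Mature migratory DCs (n = 3 WT and 4 CaMKK2 KO mice), which leave the tissue for lymph nodes, had 0 of 7 tested members called in edgeR or DESeq2. Of the 1348 genes tested, edgeR called 1.11%. At an unadjusted p under 0.05 there were 0 members as well. CaMKK2 KO mouse 1 stood above the other 3 in the chain genes, with 5826 CPM of H2-Aa against 3414 to 3518 CPM. It was also highest in the macrophage markers (586 CPM, against 93.5 to 168 CPM in the others) and the cDC1 markers (91.5 CPM, against 3.9 to 15.0 CPM), whose part in its levels was not tested. Genes with at least 50 UMIs included H2-DMb1, which then passed, at 50.3, 53.8 and 36.6 CPM in WT mice 2 to 4 and 178, 113, 109 and 138 CPM in CaMKK2 KO mice (log2 difference 1.45 ± 0.29, adjusted p = 0.025). Of all genes, 35 of 4284 passed at that minimum.

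In B cells no difference in a member was detected. 0 of 9 tested members were called in edgeR or DESeq2 (n = 4 mice per genotype), and edgeR called 4.47% of the 1097 genes tested. At an unadjusted p under 0.05 there were 0 members as well. Cd74 stood at 11590, 15100, 16070 and 13370 CPM in WT mice, against 14250, 15810, 16170 and 15360 CPM in CaMKK2 KO mice (log2 difference 0.13 ± 0.09, adjusted p = 0.38), and Ciita at 144, 163, 205 and 236 CPM and at 218, 227, 222 and 140 CPM (0.12 ± 0.23, adjusted p = 0.80). The genotypes overlapped for every member. The log2 fold changes of the 9 members ran from -0.10 (H2-Oa) to 0.33 (H2-DMb2), with SE of 0.09 to 0.23.

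The background level of class II UMIs in T and NK cells was also higher in the CaMKK2 KO library. In T cells 4 of 6 tested members rose, against 1.07% of 7109 genes, and in NK cells 4 of 5, against 1.80% of 6457 genes, in each case the core genes (both classes were added after the data were seen). Cd74 stood at 118, 140, 114 and 125 CPM in WT T cells and at 212, 176, 201 and 256 CPM in CaMKK2 KO T cells (0.75 ± 0.13, adjusted p = 0.0096), and in NK cells the difference was 1.15 ± 0.13 (adjusted p = 0.00029). The genotypes did not overlap for Cd74 in either class. Over all cells of a library, Cd74 stood at 7139 ± 1838 CPM in WT mice and 15630 ± 1754 CPM in CaMKK2 KO mice, and H2-Aa at 2828 ± 670 and 6356 ± 523 CPM. The summed core genes of CaMKK2 KO T cells, 440 to 718 CPM, lay below every CaMKK2 KO mouse's microglia, monocytes or macrophages, the lowest of which was 6403 CPM. With cells of high doublet score kept, 1 of 7 tested members passed in T cells (116 of 7222 genes) and 0 of 5 in NK cells (173 of 6487 genes). In T cells 1 of 5 passed without WT mouse 3 (39 of 6711 genes) and 0 of 5 without WT mouse 4 (43 of 6667 genes).

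**Figure D4:**
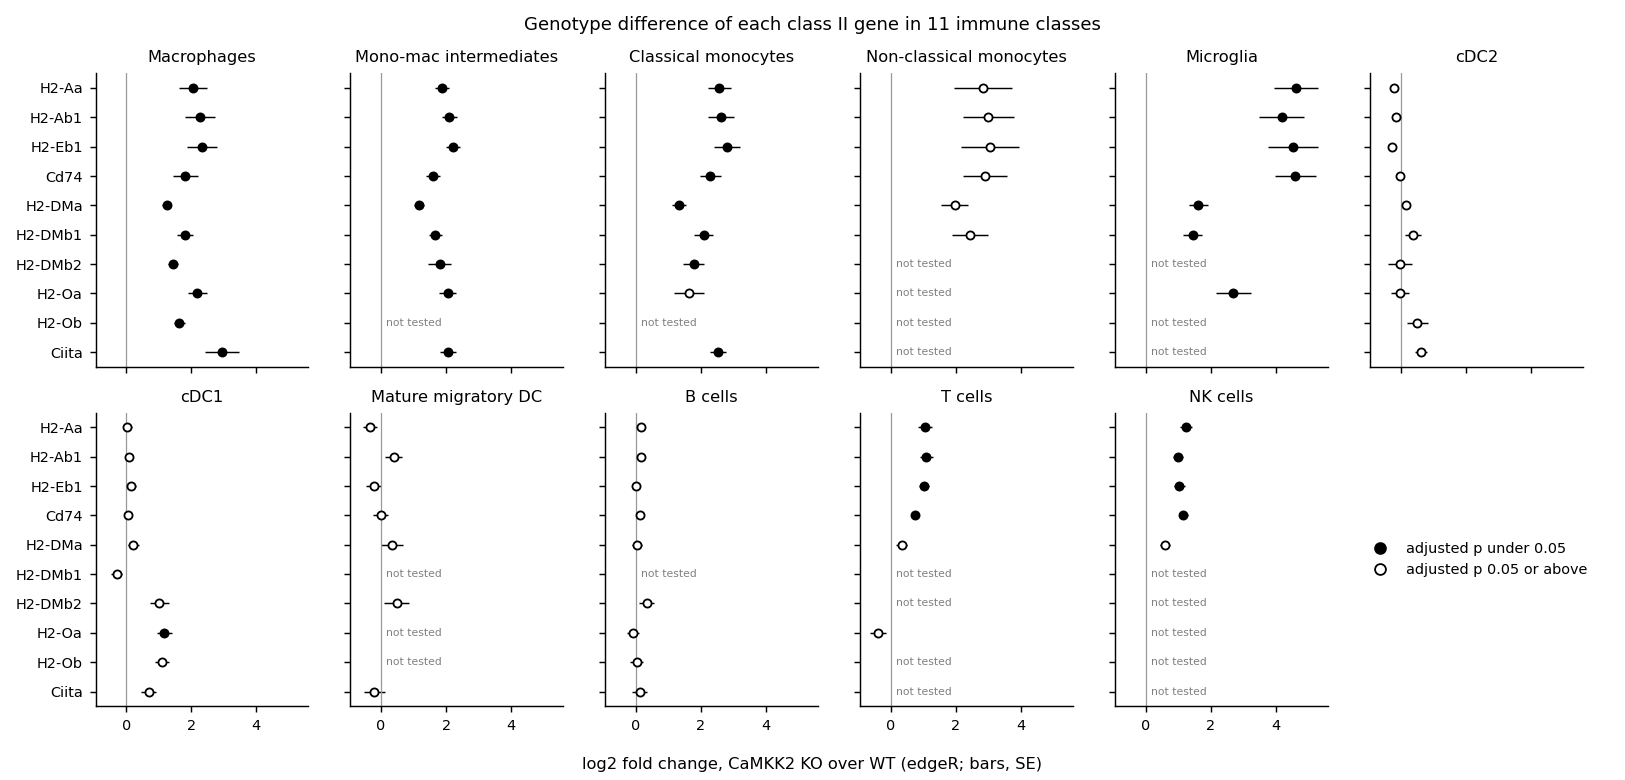
Log2 fold change of each of the 10 genes, CaMKK2 KO over WT (x axis), in 11 immune classes, with bars for the SE of edgeR's fit; filled points have an adjusted p under 0.05, and genes under 200 UMIs in a class were not tested. The members lie right of 0 in macrophages, intermediates, monocytes and microglia, and within 0.34 of 0 in B cells.

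A call in some classes and not in others does not test the difference, so the genotype difference itself was compared with that in macrophages of the same mice. In B cells it was lower for 9 of 9 tested members, against 2.48% of the 1047 genes tested in both classes. For Ciita the difference between the classes was -2.88 ± 0.46 on the log2 scale (adjusted p = 0.0042), for H2-Eb1 -2.58 ± 0.39 (adjusted p = 0.0042), for H2-Oa -2.35 ± 0.31 (adjusted p = 0.0027) and for H2-DMb2, the smallest, -1.07 ± 0.23 (adjusted p = 0.020). Without WT mouse 2, WT mouse 3 or CaMKK2 KO mouse 4, H2-DMb2 missed the threshold and 8 of 9 members passed. In cDC2 all 10 members had an unadjusted p under 0.05, a threshold at which the share of all genes was not counted. H2-Aa had an estimate of -2.45 ± 0.58 (adjusted p = 0.13). After adjustment only H2-DMa passed, 1 of 10 members, with -1.05 ± 0.17 (adjusted p = 0.042), against 0.0954% of 3146 genes. This count turned on WT mouse 1, the mouse with low macrophage levels: without it 6 of 10 passed (the core genes, H2-DMa and Ciita), without CaMKK2 KO mouse 3 2 passed, and without any of WT mice 2, 3 and 4 or CaMKK2 KO mice 1 and 2 0 passed. Of all genes, 16 of 2814 passed without WT mouse 1 and 21 of 2794 without CaMKK2 KO mouse 3. From 1 to 5 genes passed in the other fits. In microglia 0 of 7 members differed from macrophages in edgeR, the only tool run for these terms, where 0.135% of 4455 genes did, and 4 had an unadjusted p under 0.05, such as Cd74 with 2.22 ± 0.58 (adjusted p = 0.17). In classical monocytes 0 of 9 did, where 0.541% of 6657 genes did, 0 had an unadjusted p under 0.05, and the estimates ran from -0.61 (H2-Oa, SE 0.50) to 0.42 (H2-Aa, SE 0.26).

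The proportions among the members marked the classes apart from the level. H2-DMb2 made up 70.0% to 93.9% of the H2-DMb1 and H2-DMb2 UMIs of a mouse's B cells and 38.7% to 73.3% of those of mature migratory DCs. In cDC2 its share was 39.0% to 48.3% in WT mice and 34.8%, 12.1% and 59.0% in CaMKK2 KO mice 1 to 3. In macrophages it was 3.86% to 9.41% and in classical monocytes 0% to 2.32%. Since these genes are near-identical copies, the shares hold only as far as the authors' counting separated them. UMIs of the H2-O chains per 100 UMIs of the H2-DM chains were 54.6 to 80.5 in B cells, 13.1 to 35.2 in cDC2, 12.9 to 36.3 in microglia and 1.16 to 2.52 in macrophages. Mature migratory DCs, at 13.8 to 55.3, overlapped B cells. The macrophages and microglia of a mouse did not overlap in this ratio. Cd74 made up 48.4% to 55.3% of the core gene UMIs of WT macrophages and 41.8% to 42.6% of those of CaMKK2 KO macrophages, a range that WT cDC2 (39.9% to 42.9%) also held. Ciita UMIs per 1000 core gene UMIs were 1.16, 1.91, 2.01 and 2.45 in WT macrophages and 3.23, 4.18, 3.18 and 4.41 in CaMKK2 KO macrophages, with no overlap, and 6.12 to 9.47 in WT B cells. These ratios were described and not tested. H2-Eb2, a further β chain gene of the locus that is not a member, was nearly absent from macrophages (0.22 to 2.07 CPM), and stood at 33.2 to 186 CPM in B cells and at 128, 97.5 and 97.7 CPM in mature migratory DCs of WT mice, against 0, 28.3, 58.4 and 26.9 CPM in those of CaMKK2 KO mice.

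**Figure D5:**
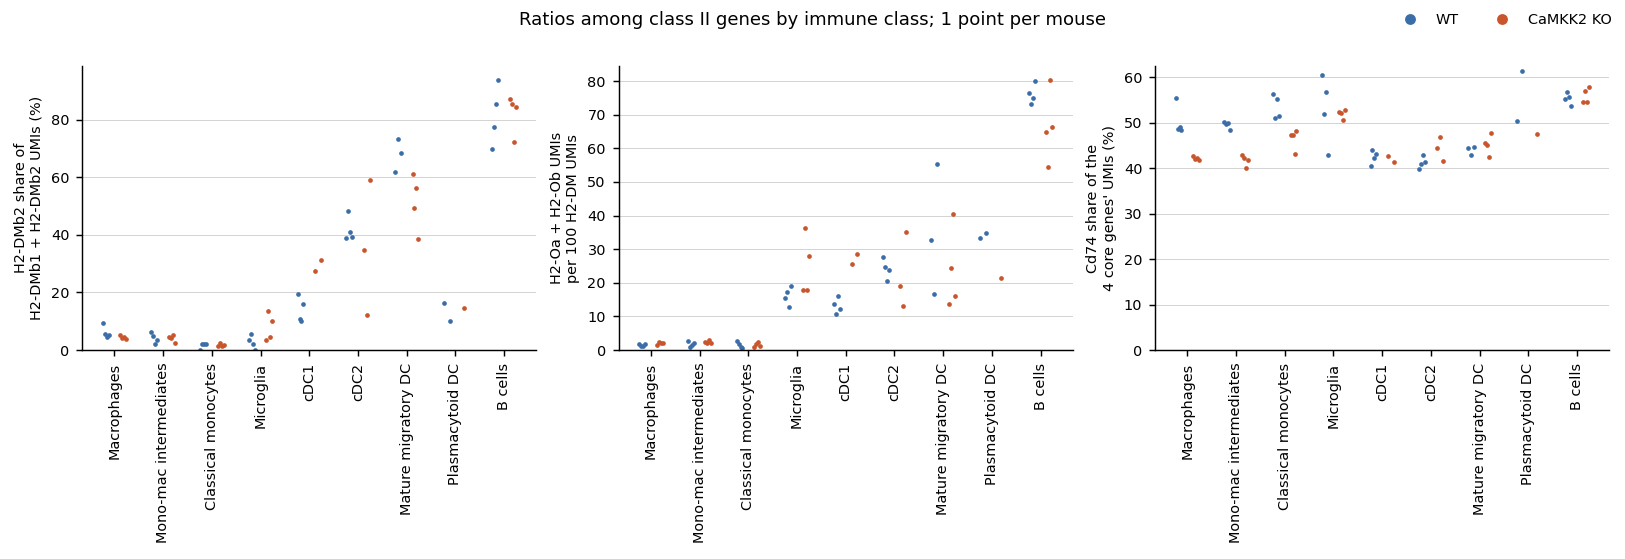
Ratios among class II genes (y axes) in 9 immune classes (x axis), 1 point per mouse (blue, WT; orange, CaMKK2 KO): left, H2-DMb2 share of H2-DMb1 and H2-DMb2 UMIs; middle, H2-Oa and H2-Ob UMIs per 100 UMIs of H2-DMa, H2-DMb1 and H2-DMb2; right, Cd74 share of the UMIs of H2-Aa, H2-Ab1, H2-Eb1 and Cd74. Of the classes shown, B cells have the highest median in the left and middle panels, with mice at 70.0% to 93.9% and at 54.6 to 80.5. Mature migratory DCs overlap them in both panels, with highest mice at 73.3% and 55.3.

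Most other genes of the pathway did not pass edgeR's test in the same cells, and those that passed it mainly fell. The genes that DESeq2 called went in both directions. Of 32 genes listed for it, 30 could be tested in macrophages, where 1 rose and 4 fell. That is a larger share than the 2.47% of all genes called in either direction. Of the 7 factors that bind the X and Y boxes, 0 passed, with Rfx5 at 6.78, 7.85, 5.94 and 6.10 CPM in WT mice, against 8.40, 10.9, 11.2 and 14.3 CPM in CaMKK2 KO macrophages (log2 fold change of 0.72 ± 0.19, adjusted p = 0.079). An unadjusted p under 0.05 was seen for 2 (Rfx5 and Rfxank), and DESeq2 called Rfx5 higher (0.80, adjusted p = 0.016). Of 11 genes of interferon gamma signalling and Ciita control, 0 passed in edgeR. An unadjusted p under 0.05, for which the share of all genes was not counted, was seen for 5 of the 11. DESeq2 called 3, all higher: Irf1 (1.29, adjusted p = 0.012), Irf2 (0.58, adjusted p = 0.0060) and Jak2 (0.70, adjusted p = 0.049). Of 7 tested genes of peptide supply and chain turnover, Napsa, an aspartic protease, rose (0.57 ± 0.12, adjusted p = 0.046), and the proteases Ctsb (-0.47 ± 0.09, adjusted p = 0.030) and Lgmn (-0.64 ± 0.14, adjusted p = 0.046) fell. DESeq2 called 4 of these genes, with Marchf1, a ligase that turns over class II, at 0.60 (adjusted p = 0.010). Of the 4 costimulation genes Cd83, which stabilises class II at the surface of dendritic cells, fell, from 156, 125, 162 and 145 CPM to 55.1, 36.1, 62.1 and 44.0 CPM (-1.57 ± 0.16, adjusted p = 0.0011), and Cd40 was at 1.15 ± 0.42 (adjusted p = 0.15). Lag3, a receptor for class II, fell in macrophages (-0.91 ± 0.18, adjusted p = 0.037) and rose in NK cells (1.07 ± 0.26, adjusted p = 0.041). In microglia it was at 0.44 ± 0.13 (adjusted p = 0.12) and DESeq2 called it higher (0.55, adjusted p = 0.035), and the genotype difference in microglia minus that in macrophages was 1.35 ± 0.19 (adjusted p = 0.0093).

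In microglia, 18 of the 32 genes could be tested and 1 rose, Irf1, a transcription factor upstream of Ciita, against 2.02% of all genes called. It was at 73.3, 57.9, 104 and 55.0 CPM in WT mice and 115, 272, 134 and 136 CPM in the KO mice (1.19 ± 0.27, adjusted p = 0.042). In classical monocytes 27 could be tested and 1 fell, the costimulatory ligand Cd80 (-1.41 ± 0.21, adjusted p = 0.0072), against 2.02% of all genes called there, and Rfx5 was at 1.35 ± 0.31 (adjusted p = 0.057). Of the classes where members were not called, Irf8, a dendritic cell regulator, rose in cDC2 (1.37 ± 0.22, adjusted p = 0.025) and Napsa in B cells (0.61 ± 0.14, adjusted p = 0.038). In cDC1 both tools called Napsa higher (DESeq2 1.01, adjusted p = 0.0054). DESeq2, but not edgeR, called Irf1 higher (0.98, adjusted p = 0.0068) and Cd83 lower (-0.83, adjusted p = 0.0078) in mature migratory DCs. The same held for Cd83 in intermediates (DESeq2 -1.07, adjusted p = 0.019). The DESeq2 estimates of Irf1 in cDC1, cDC2 and B cells were 1.28, 0.95 and 0.75 and did not pass (adjusted p of 0.22, 0.32 and 0.22). In cDC2 the 5 plasmacytoid DC markers, all with UMIs, summed to 6.97 to 27.9 CPM in WT mice, against 47.2 to 78.3 CPM in CaMKK2 KO mice, and the 8 classical monocyte markers to 681 to 1615 CPM against 2417 to 3081 CPM, without overlap, and their part in the difference of Irf8 was not tested.

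The genes whose level followed the core genes most closely differed between and within classes. Over 72 sums of class and mouse (12 classes, 8 mice, at least 20 cells each), Pearson's r of log2(CPM + 1) with the core genes' sum was 0.86 for Rnase6, 0.83 for Cd40, 0.82 for Pkib, 0.81 for Themis2 and 0.81 for Kynu. Of the members, Ciita (0.96) and H2-DMa (0.95) followed more closely than H2-Ob (0.59) and H2-Oa (0.48). These sums share their libraries and mice, so the values are descriptions. Over single macrophages within a mouse, the mean of Spearman's rho over the 8 mice was highest for Jaml (0.32), Il1b (0.31), AW112010 (0.30), Ly6i (0.30) and Ly6a (0.29) of the genes outside the members (9367 genes ranked). The members stood at 0.58 for H2-DMb1, 0.46 for H2-DMa, 0.44 for Ciita and 0.07 for H2-Ob. In sparse counts a weak correlation is no finding.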

How the data were processed

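Live CD45+ cells of 4 WT and 4 CaMKK2 KO mice were measured, with 1 10X channel per genotype. The deposited values are raw UMI counts per gene and barcode, with hashtag counts beside them, which the authors made with Cell Ranger 4.0.0 and mm10 (bcl2fastq 2.20 and STAR 2.7.5c are also named in the submitters' processing notes). From these counts, hashtags were called with HTODemux (quantile 0.99, Seurat 5.3.0), which gave 5974 and 6696 cells of a single mouse, 667 and 508 hashtag doublets and 48 and 67 cells without a hashtag for WT and CaMKK2 KO. Cells under 200 genes or over 3 median absolute deviations from the median in genes, UMIs or mitochondrial share were removed (scuttle 1.12.0), as were 222 and 169 cells with the highest Scrublet scores (scanpy 1.11.5).

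Each cell took the class of its highest marker score, of at least 0.2 and 0.1 above the next, with microglia (0.3) and non-classical monocytes (0.25) gated separately. Of the cells kept, 571 had no class, and 54 neutrophils and basophils were not described. UMIs were summed per mouse and class, mice with under 10 cells of a class were left out, and every gene reaching 200 UMIs over the class entered edgeR 4.0.16 (quasi-likelihood test, scaling by total counts, Benjamini-Hochberg adjustment over all genes tested, threshold 0.05). Differences between classes were tested as the class by genotype term with the mouse as a block. DESeq2 1.42.0 was an alternative, beside TMM scaling, a minimum of 50 UMIs, outlying cells or high doublet scores kept, clusters in place of gates and each mouse left out. CPM were rounded to 4 significant digits. Shares of all genes are given for adjusted calls of the main edgeR tests, and counts of all genes for some of the alternatives. They were not counted at an unadjusted p under 0.05, nor for genes whose mice did not overlap between the genotypes. The edgeR tests were also run on simulated data with known changes. This covered the differences between classes and the tested classes, except those added after the data were seen. DESeq2 was not run on simulated data.

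The text names all 10 members, the other class II locus H2-Eb2, Camkk2, genes of 5 pathway lists and the 5 genes most like the core genes by each of the measures given. Members and lists were chosen with earlier results of these data known. H2-Ea-ps and Ifi30 were not analysed here. The values of 1 gene of the lists are not reported here. The labels give no cultures or batches beyond the mouse and the channel.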

Additional observations from a re-analysis of the deposited data

Results flagged for a closer look

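A value lay far from the other 3 of its group for 12 of 182 groups of 4 mice checked, where chance alone picks out about 1 in 20. In macrophages these were WT mouse 2 for H2-DMb2 (21.1 CPM, high) and WT mouse 1 for H2-Ob (3.89 CPM, low) and Ciita (4.34 CPM, low). In non-classical monocytes CaMKK2 KO mouse 3 was low for H2-Ab1 (1866 CPM) and H2-Eb1 (1721 CPM). In mature migratory DCs CaMKK2 KO mouse 1 was high for H2-Aa (5826 CPM), H2-Ab1 (6262 CPM) and H2-Eb1 (6267 CPM). In B cells WT mouse 1 was low for H2-Aa (3390 CPM) and CaMKK2 KO mouse 4 was low for Ciita (140.1 CPM). In T cells WT mouse 2 stood apart for H2-Ab1 (91.7 CPM) and WT mouse 1 for H2-DMb1 (18.4 CPM).

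The genotype difference itself differed between classes, by edgeR's class by genotype term, for 9 members between B cells and macrophages. On the log2 scale, B cells minus macrophages, the term was -2.88 for Ciita, -2.58 for H2-Eb1, -2.35 for H2-Oa, -2.34 for H2-Ab1, -2.15 for H2-Aa, -1.87 for Cd74, -1.56 for H2-Ob, -1.2 for H2-DMa and -1.07 for H2-DMb2. Between cDC2 and macrophages it passed for H2-DMa, at -1.05.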

How the results depend on the processing

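Of the values of called members under alternatives other than leaving out a mouse, 291 kept their direction and their side of the threshold and 21 kept the direction but missed the threshold, and 0 reversed. Leaving out each mouse gave 345 and 66 such values. The cause of the changes below was not tested. The number of members called became 4 in macrophages within clusters holding both genotypes (chosen after the data were seen), 1 in cDC2 with clusters in place of gates, 0 in cDC1 with TMM scaling and 1 in mature migratory DCs with genes of at least 50 UMIs. Among classes added after the data were seen, it became 3 with DESeq2, 4 with genes of at least 50 UMIs and 6 with clusters in non-classical monocytes, and with high doublet scores kept 1 in T cells and 0 in NK cells.

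Without each mouse in turn, the number called ran from 5 to 10 in macrophages, 4 to 7 in microglia, 6 to 8 in classical monocytes, 7 to 9 in intermediates, 0 to 1 in cDC2, 0 to 1 in cDC1, 0 to 6 in non-classical monocytes, 0 to 4 in T cells and 0 to 6 for cDC2 against macrophages. For B cells against macrophages the number called ran from 8 to 9. The difference in the share of high macrophages ran from 44.0 to 58.4 percentage points, where 3 mice against 4 allow no exact permutation p below 0.0571.

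Signs turned only for members that were not called (log2 fold changes). In cDC2 H2-DMb2 was 0.01 with high doublet scores kept and 0.18 with clusters, and H2-Oa 0.12 with clusters. In cDC1 H2-Aa was -0.01 with DESeq2, -0.05 with outlying cells kept, -0.05 with high doublet scores kept and -0.07 with clusters, H2-Ab1 was -0.0032 with outlying cells kept and -0.03 with clusters, and H2-Eb1 -0.03 with clusters. In mature migratory DCs Cd74 was 0.0009 with outlying cells kept and H2-Ab1 -0.51 with clusters. In B cells H2-Ob was -0.01 with TMM scaling and H2-Eb1 0.01 with outlying cells kept and 0.01 with high doublet scores kept.
Without each mouse in turn, such values ran in cDC2 from -0.43 to 0.26 for H2-Oa, from -0.46 to 0.38 for H2-DMb2, from -0.09 to 0.0006 for Cd74, in cDC1 from -0.03 to 0.12 for H2-Aa, in mature migratory DC from -0.3 to 0.12 for Cd74, in B cells from -0.1 to 0.12 for H2-Ob, from -0.03 to 0.09 for H2-DMa, from -0.1 to 0.06 for H2-Eb1, from -0.18 to 0.03 for H2-Oa, in the term of microglia against macrophages from -0.31 to 0.57 for H2-Oa, from -0.05 to 0.47 for H2-DMa. Mice could not be paired between the genotypes, because the labels give no replicate numbers that the genotypes share and a hashtag number only names a mouse.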

Other observations

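Plasmacytoid DCs, a class of 33 WT and 41 CaMKK2 KO cells that was not tested, held intermediate class II levels. In the mice with at least 10 of these cells, Cd74 stood at 5625 and 4538 CPM in WT mice 2 and 4 and at 6855 CPM in CaMKK2 KO mouse 3, and Ciita at 51.6, 48.8 and 53.6 CPM. H2-Oa, at 178, 114 and 157 CPM in the same mice, was far above H2-Ob, at 0, 8.13 and 3.57 CPM.

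With the thinning used for macrophages, the share of cells with at least 20 UMIs from the members had a median over mice of 15.6% in WT and 69.1% in CaMKK2 KO classical monocytes, and of 46.4% and 93.1% in the intermediates. In microglia it ran from 0% to 7.69% in WT mice and from 16.3% to all cells in CaMKK2 KO mice. In mature migratory DCs the share was lower in CaMKK2 KO mice (21.7% to 31.3%) than in WT mice (38.5% to 56.3%), without overlap, while it was at least 97.9% in WT cDC2 and 0% in T and NK cells. These shares were not tested.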
